A study of Mus musculus with 7 samples.

Results

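Among the transcripts that mark the parts of the early heart, 9 genes of chamber, atrial and sinus venosus identity were followed in the cardiac region of mouse embryos that lack Nodal in cells with a history of Hoxb1 expression. They were chosen by name (Nppa, Nppb, Bmp10, Hey1, Hey2, Cited1, Nr2f1, Nr2f2 and Shox2), and all 9 were found among the 48526 genes of the table. The mutants were 3 embryos of genotype Hoxb1 Cre/+ ; Nodal flox/nul, and the controls 4 embryos of genotype Hoxb1 +/+ ; Nodal flox/+, all at E8.5 and of mixed genetic background. Every embryo thus carried 1 conditional Nodal allele, and the mutants alone carried the Nodal null allele and the Cre recombinase in a Hoxb1 allele, so the loss of Nodal cannot be told apart from these alleles. Each library came from the microdissected cardiac region of 1 embryo. Mutant 1 and controls 2 and 4 were male and of substage E8.5f, and mutants 2 and 3 and controls 1 and 3 were female and of substage E8.5e, so sex and substage cannot be told apart.

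At this stage the heart tube loops and its chambers begin to form. Working chamber muscle grows out of the primary tube and switches on the natriuretic peptide genes, while the inflow end keeps adding cells that become atria and the sinus venosus, the venous entrance that later holds the pacemaker. Nppa and Nppb encode secreted natriuretic peptides and are classical labels of chamber muscle. Bmp10 encodes a ligand of the bone morphogenetic protein family needed for growth of the trabeculae. Hey1 and Hey2 encode repressors that act in the Notch pathway and are enriched in atrial and ventricular muscle in turn. Cited1 encodes a cofactor of the acetyltransferases CBP and p300. Nr2f1 and Nr2f2 encode the orphan nuclear receptors COUP-TFI and COUP-TFII, which mark atrial precursors, and Shox2 encodes a homeodomain factor of the sinus venosus and sinus node.

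The libraries held 7155994 to 15122057 recovered reads, control 4 being the shallowest. Nodal had 0 reads in each mutant and 9, 3, 6 and 0 reads in controls 1 to 4. Lefty2, a target of Nodal, had 5, 2 and 4 reads in mutants 1 to 3 and 227 to 717 in the controls. All 15 listed markers of heart muscle passed the filter on low values. Their summed normalised count was 68050 to 136546 in mutants and 60924 to 173554 in controls, with Actc1 at 9998 to 22584 in mutants and 8663 to 27763 in controls. Neural tube genes were also present: 12 of the 15 listed passed the filter, none was listed at 0 in all libraries, and their sum was 3244 to 6168 in mutants and 2270 to 7108 in controls. Pax6, a neural progenitor factor, was at 97.6, 764 and 1060.1 in mutants 1 to 3 and at 65.7, 74.3, 989 and 113 in controls 1 to 4. Mutants 2 and 3 and control 3 were low in heart muscle and high in neural tube transcripts.

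The upstream sequences of the 3 secreted factors and of Shox2 are shown because the levels of the secreted factors moved together across the embryos and Shox2 separated the genotypes. Each is the stretch of 250 bases before the gene's start in RefSeq (GRCm38.p6), printed 5′ to 3′ on the strand of the gene, with matches to the motifs searched in capitals. The window of Nppa is chr4:148000472-148000721, plus strand, that of Nppb chr4:147985650-147985899, plus strand, that of Bmp10 chr6:87428744-87428993, plus strand and that of Shox2 chr3:66981772-66982021, minus strand. GENCODE begins Nppb at 147985788, inside its window, and the Shox2 window lies within the span of Rsrc1, a gene on the other strand.
Nppa: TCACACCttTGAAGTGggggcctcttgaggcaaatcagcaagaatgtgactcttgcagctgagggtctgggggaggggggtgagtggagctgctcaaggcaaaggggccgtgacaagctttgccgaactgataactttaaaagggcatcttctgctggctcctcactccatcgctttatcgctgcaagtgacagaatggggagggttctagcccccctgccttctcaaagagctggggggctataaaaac
Nppb: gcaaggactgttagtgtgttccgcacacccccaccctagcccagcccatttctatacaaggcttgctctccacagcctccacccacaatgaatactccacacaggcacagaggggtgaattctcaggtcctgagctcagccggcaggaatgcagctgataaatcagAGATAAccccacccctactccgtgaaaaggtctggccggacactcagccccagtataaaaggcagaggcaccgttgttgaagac
Bmp10: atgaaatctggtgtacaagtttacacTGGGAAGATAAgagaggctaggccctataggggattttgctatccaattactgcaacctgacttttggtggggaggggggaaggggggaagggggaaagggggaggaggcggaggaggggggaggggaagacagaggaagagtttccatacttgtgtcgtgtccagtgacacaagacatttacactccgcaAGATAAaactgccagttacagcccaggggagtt
Shox2: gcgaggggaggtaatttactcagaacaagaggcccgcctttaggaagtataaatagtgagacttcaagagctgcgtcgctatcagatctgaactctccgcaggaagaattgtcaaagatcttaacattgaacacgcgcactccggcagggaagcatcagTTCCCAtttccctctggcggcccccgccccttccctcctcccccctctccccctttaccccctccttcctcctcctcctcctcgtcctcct
The motifs were searched on both strands: the T-box element GGTGTGA, the NKX2-5 element TNAAGTG, the GATA site AGATAA, the RBPJ element TGGGAA, the COUP-TF element AGGTCA and the FOXH1 core ATNCACA. The Nppa window holds a T-box element at bases -250 to -244 from the start, on the opposite strand, and an NKX2-5 element at -241 to -235. Of 32851 RefSeq windows of this length, 3.33% hold the first and 10.1% the second. Nppb has 1 match to AGATAA, the only form of the GATA site searched, at -84 to -79. Other forms were not counted, and TGATAA occurs in the printed Nppa and Nppb windows. Bmp10 has GATA sites at -219 to -214 and -33 to -28, and an RBPJ site at -224 to -219 that shares its last base with the first of them; 9.99% of windows hold a GATA site and 21.6% an RBPJ site. Shox2 has an RBPJ site at -91 to -86, on the opposite strand. Of the members whose window is not printed, Hey2 has an RBPJ site at -207 to -202 and Nr2f2 a FOXH1 core at -231 to -225, a motif in 11.3% of windows. Cited1 and Nr2f1 hold none of the 6, and none of these 8 windows holds the COUP-TF element, found in 14% of all. These are matches of letters, not tests of binding. RefSeq windows were matched for 8 of the 9 genes, Hey1 being the exception. GENCODE begins Nr2f1 at 78199757, so its RefSeq window, chr13:78198874-78199123 on the minus strand, lies inside that gene.

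No member passed the comparison of mutants with controls, and 8 of the 9 had lower mean log2 values in mutants. Normalised counts were compared with limma on log2(normalised count + 1) over the 15599 genes that reached a normalised count of 10 in at least 3 libraries, with a Benjamini-Hochberg adjusted p of 0.05 as the threshold. All 9 members passed that filter, and 0 were called, where 0.0128% of all genes were called. Adjusted p-values of the members ran from 0.967 to 0.997 in limma. At an unadjusted p under 0.05 there were 2 members, Shox2 and Nr2f2, against 3.83% of all genes. Shox2 reached the filter in all 4 controls and in 1 mutant, so it was tested through the group where it was higher, and its place in this count is a description. On the recovered reads 0 members were called by edgeR, DESeq2 or limma-voom, which called 0.00641%, 0.0513% and 0% of genes lower in mutants. At an unadjusted p under 0.05 edgeR had 2 members (3.67% of all genes), DESeq2 1 (2.86%) and limma-voom 3 (3.71%). The median log2 fold change was -0.37 over the members and 0.0058 over all genes tested, of which 48.3% had a lower mean log2 value in mutants. Control 3 stood apart from the other controls in tissue content. Without it all 9 members had lower mean log2 values in mutants, still with 0 called (lowest limma adjusted p = 0.325, for Bmp10). Control 3 was also the lowest control for Hey2, the member whose sign turned, so this is no independent support for a lower level.

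**Figure D1:**
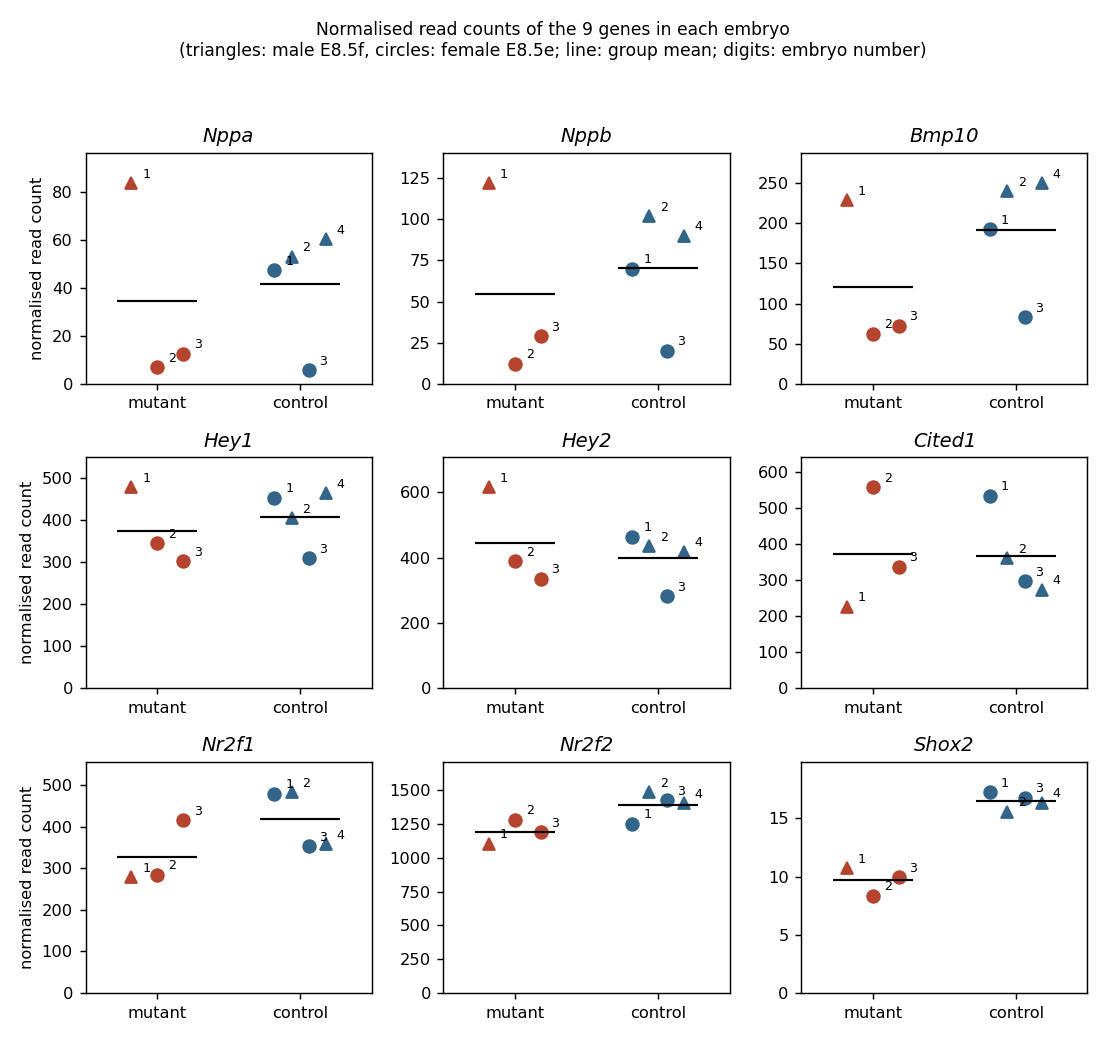
Normalised read count of each gene in each embryo, mutants left and controls right, with triangles for male E8.5f and circles for female E8.5e embryos, a line at the group mean and the embryo number beside each point. Nppa, Nppb and Bmp10 are low in mutants 2 and 3 and in control 3, while the 3 mutants lie below the 4 controls for Shox2.

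The chamber peptide genes varied widely among embryos of 1 genotype. Nppa (ENSMUSG00000041616, chromosome 4, 148000722 to 148002079, protein coding) had normalised counts of 84.0, 6.85 and 12.7 in mutants 1 to 3, against 47.5, 53.2, 5.59 and 60.5 in controls 1 to 4. Mutant 1 was the highest of all embryos and control 3 the lowest, so the groups overlapped. The group values were 34.5 ± 42.9 (SD, n = 3) in mutants and 41.7 ± 24.7 (SD, n = 4) in controls. On the log2 scale mutants differed from controls by -0.62 (SE 1.0, limma adjusted p = 0.967) with a 95% interval of -2.93 to 1.68, an interval that spans losses and gains. The low embryos rested on 9 reads in mutant 2, 14 in mutant 3 and 5 in control 3.

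Nppb (ENSMUSG00000029019, chromosome 4, 147985788 to 147987205), the neighbour of Nppa, had the same 3 low embryos. It had 122, 12.2 and 28.9 in mutants 1 to 3, against 70.0, 102, 20.1 and 90.0 in controls 1 to 4. Again mutant 1 was the highest, and mutants 2 and 3 stood with control 3, on 16, 32 and 18 reads in turn. The difference was -0.75 on the log2 scale (SE 0.80, 95% interval -2.59 to 1.09, limma adjusted p = 0.967). Between the lowest and the highest embryo Nppa spanned 12.9-fold and Nppb 9.34-fold on the log2(normalised count + 1) scale, wider than 98.5% and 98.0% of the genes tested.

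Bmp10 (ENSMUSG00000030046, chromosome 6, 87428994 to 87437677) shared this pattern with a smaller span of 3.96-fold. Its normalised counts were 228, 62.4 and 72.4 in mutants 1 to 3, against 193, 240.2, 82.8 and 250.3 in controls 1 to 4. Mutants 2 and 3 were the lowest of the 7 embryos, with control 3 just above them. The group values were 121 ± 93.1 (SD, n = 3) in mutants and 191 ± 76.7 (SD, n = 4) in controls, which differ by -0.79 on the log2 scale (SE 0.52, limma adjusted p = 0.967, 95% interval -2.0 to 0.41).

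The levels of these 3 genes were low in the embryos with low heart muscle transcripts. In a bulk sample fewer cells of a type and less RNA per cell cannot be told apart. With the mean log2 level of the 15 heart muscle genes as a covariate, the log2 fold changes were 0.10 for Nppa, -0.19 for Nppb and -0.42 for Bmp10. With the neural tube list in its place they were 0.31, -0.032 and -0.30, none of them called by limma (adjusted p = 0.871 to 0.991). Relative to heart muscle, the log2 level of Bmp10 was -4.59, -5.33 and -5.52 in mutants 1 to 3, against -4.70, -4.48, -4.70 and -4.74 in controls 1 to 4. The controls agreed within an SD of 0.12, control 3 included, while mutants 2 and 3 lay below all of them and mutant 1 among them. The difference of -0.49 did not pass an exact two-sided permutation test (p = 0.114, Benjamini-Hochberg adjusted p = 0.914 over the 9 members, smallest p allowed 0.0286), with 2 of 3 mutants below all controls. Without control 3 the log2 fold changes were -1.38 for Nppa, -1.26 for Nppb and -1.15 for Bmp10, with limma adjusted p = 0.483, 0.482 and 0.325. Control 3 was the lowest control for each of these 3 genes, so its removal gives no independent support for a lower level. The heart-muscle-relative levels of the other 8 members overlapped between the groups too. For Nppb, mutants 2 and 3 (-7.60 and -6.82) likewise lay below all controls (-6.69 to -5.72), and mutant 1 (-5.49) lay above them.

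**Figure D2:**
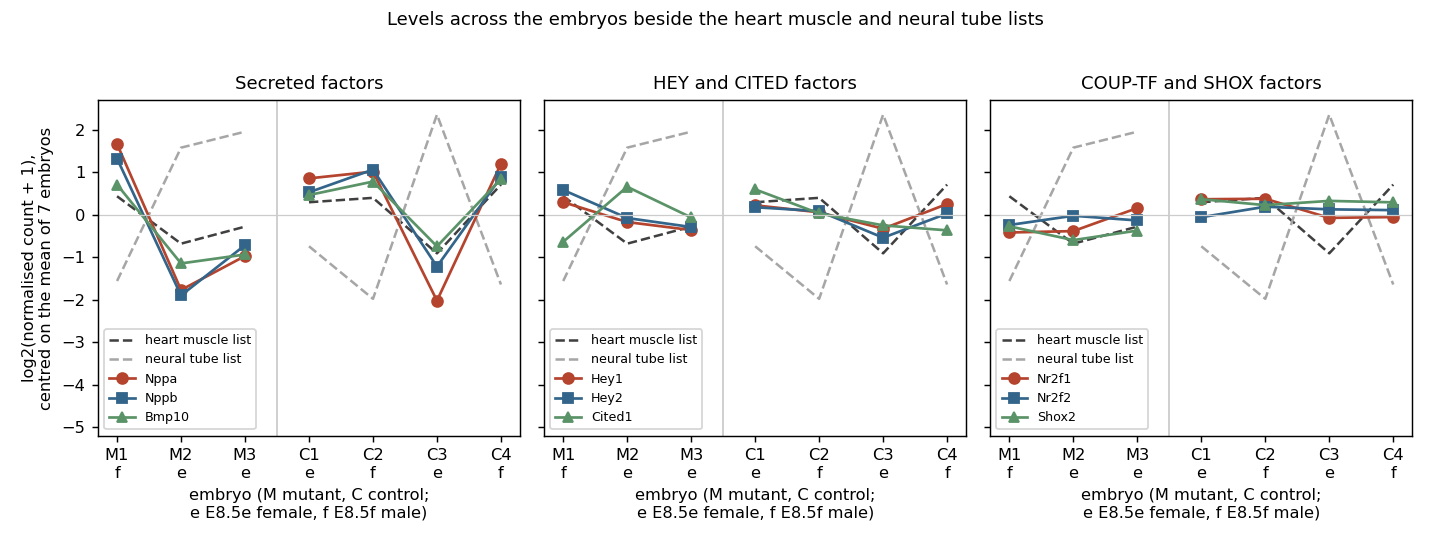
Log2(normalised count + 1) of each gene in each embryo, centred on its mean over the 7 embryos, with mutants left of the grey line and controls right, and the mean levels of the heart muscle and neural tube lists as dashed lines. Nppa, Nppb and Bmp10 dip with heart muscle in mutants 2 and 3 and control 3, where the neural tube list peaks, whereas Nr2f1, Nr2f2 and Shox2 lie near or above their means in control 3.

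Sex and substage separated the embryos for the same 3 genes. Nppa was at 53.2 to 84.0 in the 3 male E8.5f embryos and at 5.59 to 47.5 in the 4 female E8.5e embryos. Nppb was at 90.0 to 122 in male E8.5f and 12.2 to 70.0 in female E8.5e embryos, and Bmp10 at 228 to 250.3 and 62.4 to 193. For these 3 of the 9 members every male E8.5f embryo lay above every female E8.5e embryo, as it did for 5.64% of all genes. With genotype in the fit, the male E8.5f minus female E8.5e difference was 2.23 (SE 0.67) on the log2 scale for Nppa, 1.84 (SE 0.51) for Nppb and 1.27 (SE 0.30) for Bmp10, which are 4.69-fold, 3.59-fold and 2.41-fold. None was called by limma (adjusted p = 0.403 for each), where 0.0321% of all genes were called higher in male E8.5f embryos. At an unadjusted p under 0.05 there were 4 members, Hey2 (0.45, SE 0.19) being the fourth, against 10.5% of all genes. Heart muscle genes differed the same way: all 15 were higher in male E8.5f embryos, with a median of 0.89 against 0.0071 over all genes, and their part in the difference was not tested.

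**Figure D3:**
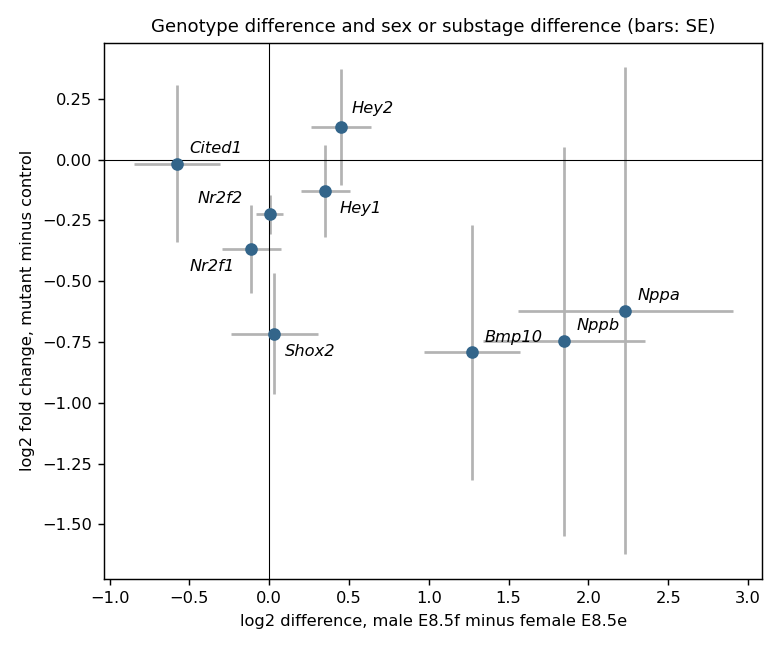
For each gene, the log2 difference of male E8.5f minus female E8.5e embryos, from a fit with genotype, on the x axis and the log2 fold change of mutant minus control embryos on the y axis, both with SE bars. Nppa, Nppb and Bmp10 lie far to the right and below 0 on the y axis. Shox2, Nr2f1 and Nr2f2 also lie below 0 on the y axis but near 0 on the x axis.

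Within the female E8.5e embryos, 2 mutants against 2 controls, the log2 fold changes were -0.79 for Nppa (SE 0.87), -0.96 for Nppb (SE 0.63) and -0.90 for Bmp10 (SE 0.37) in the fit with a separate genotype effect for each sex. In the males, 1 mutant against 2 controls, they were 0.56, 0.35 and -0.10. The test of the difference between the sexes called 0 members and 0 genes in all, and at an unadjusted p under 0.05 it gave 0 members and 2.5% of all genes.

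The repressor genes Hey1 and Hey2 each overlapped between the groups, while their ratio did not. Hey1 (ENSMUSG00000040289, chromosome 3, 8663359 to 8667256) had 478, 346 and 303 in mutants 1 to 3, against 454, 405, 309.8 and 465 in controls 1 to 4, with mutant 3 and control 3 the lowest. The difference was -0.13 on the log2 scale (SE 0.19, 95% interval -0.57 to 0.31, limma adjusted p = 0.967). Hey2 (ENSMUSG00000019789, chromosome 10, 30832359 to 30842801) had 615, 389 and 336 in mutants, against 464, 435, 282 and 419 in controls. Mutant 1 stood highest, and the other mutants lay within the control range. It was the 1 member with a higher mean log2 value in mutants, at 0.13 (SE 0.24, 95% interval -0.41 to 0.68, limma adjusted p = 0.969). With the neural tube level in the fit the Hey2 value was 0.35 (unadjusted p = 0.0134, adjusted p = 0.871 in limma), and with heart muscle 0.28 (adjusted p = 0.915).

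The log2 ratio of Hey2 over Hey1 was 0.36, 0.17 and 0.15 in mutants 1 to 3, against 0.030, 0.10, -0.14 and -0.15 in controls 1 to 4. Every mutant lay above every control. The mean was 0.23 ± 0.12 (SD, n = 3) in mutants and -0.038 ± 0.12 (SD, n = 4) in controls. The two-sided exact permutation p was 0.0571, and 0.229 after Benjamini-Hochberg adjustment over the 4 ratios computed (higher in 3 of 3 mutants). The smallest p this test allowed was 0.0286, so 1 ratio alone could not pass after adjustment over 4. How often the ratio of any 2 genes separates the groups in this way was not tested. The other 3 ratios, Nppa over Nppb, Nr2f2 over Nr2f1 and Bmp10 over Nppb, overlapped between the groups.

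**Figure D4:**
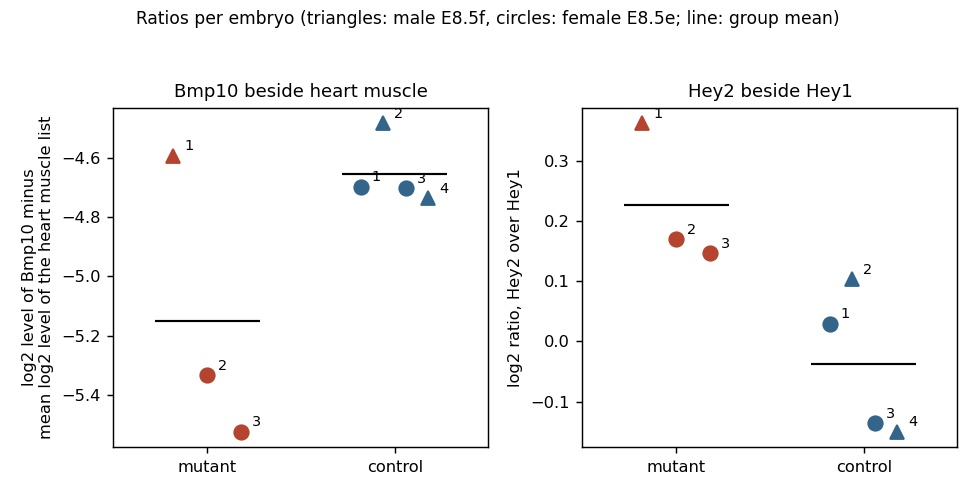
Log2 level of Bmp10 minus the mean log2 level of the heart muscle list (left) and log2 ratio of Hey2 over Hey1 (right) in each embryo, mutants left of controls in each plot, with a line at the group mean. Bmp10 sits between -4.74 and -4.48 in the controls and at -5.33 and -5.52 in mutants 2 and 3, and the Hey2 over Hey1 ratio is higher in each mutant than in any control.

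Cited1 (ENSMUSG00000051159, chromosome X, 102247381 to 102252181) differed among embryos in another order than the rest. It had 227, 557 and 337 in mutants 1 to 3, against 534, 360.3, 296 and 273 in controls 1 to 4. Mutant 2 and control 1 were the highest, and mutant 1, the highest for Nppa, was the lowest here. The group values were 374 ± 168 (SD, n = 3) in mutants and 366 ± 118 (SD, n = 4) in controls. The mean log2 values differed by -0.017 (SE 0.32, 95% interval -0.76 to 0.73, limma adjusted p = 0.997). Male E8.5f embryos lay at 227 to 360.3 and female E8.5e embryos at 296 to 557, which differ by -0.58 (SE 0.27, limma adjusted p = 0.494), opposite in sign to that of the secreted factors.

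Both COUP-TF genes had lower means in mutants, and neither was called. Nr2f1 (ENSMUSG00000069171, chromosome 13, 78188973 to 78199757) had 278, 285 and 415 in mutants 1 to 3, against 479, 483, 353 and 358 in controls 1 to 4. Mutants 1 and 2 lay below every control and mutant 3 within the control range. The group values were 326 ± 77.3 (SD, n = 3) in mutants and 419 ± 72.5 (SD, n = 4) in controls, so mutants stood at 77.9% of controls. On the log2 scale this was -0.37 (SE 0.18, 95% interval -0.78 to 0.048, limma adjusted p = 0.967). Nr2f1 is the 1 member in the authors' deposited table of selected genes, with a ratio of 0.775 and an edgeR p-value of 0.0496. For the same gene the authors' deposited table of all genes gives a p-value of 0.0655 and an adjusted value of 1. The exons of Nr2f1 overlap those of A830082K12Rik on the other strand, which had normalised counts of 25.4, 44.9 and 57.0 in mutants 1 to 3 and 59.6, 55.9, 55.9 and 50.7 in controls 1 to 4. The libraries were oriented, per the labels' protocols, but the sources used here do not say whether counting used strand, so reads of such a pair may not be told apart.

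Nr2f2 (ENSMUSG00000030551, chromosome 7, 70351944 to 70366735) was the steadiest member, spanning 1.35-fold over the embryos. It had 1102, 1282 and 1188 in mutants 1 to 3, against 1252, 1486, 1424 and 1405 in controls 1 to 4. Mutant 2 lay just above control 1, and otherwise the mutants were below the controls. The mean was 1191 ± 90.1 (SD, n = 3) in mutants, 85.6% of the 1392 ± 99.5 (SD, n = 4) in controls, and the log2 fold change was -0.22 (SE 0.079, 95% interval -0.41 to -0.042, unadjusted p = 0.0217, adjusted p = 0.967 in limma). It was -0.25 with heart muscle as a covariate and -0.24 with neural tube, and -0.11 (SE 0.099) in female E8.5e embryos. The authors' deposited table gives a p-value of 0.0224 and an adjusted value of 1. The exons of Nr2f2 also overlap an opposite-strand gene, B130024G19Rik, with normalised counts of 32.2 to 48.8 in mutants and 48.6 to 87.2 in controls.

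Shox2 (ENSMUSG00000027833, chromosome 3, 66971727 to 66981771) was the 1 member whose groups did not overlap, at a level near the filter. Its normalised counts were 10.7, 8.37 and 9.95 in mutants 1 to 3, against 17.3, 15.6, 16.8 and 16.4 in controls 1 to 4. Every mutant was lower than every control, as for 2.08% of all genes tested. The mean was 9.69 ± 1.21 (SD, n = 3) in mutants, 58.7% of the 16.5 ± 0.72 (SD, n = 4) in controls. The log2 fold change was -0.72 (SE 0.25, 95% interval -1.29 to -0.14, unadjusted p = 0.0203, adjusted p = 0.967 in limma). It rested on 11, 11 and 11 reads in mutants 1 to 3 and on 20, 17, 15 and 10 in controls 1 to 4. Pooled, the mutant reads gave 0.830 CPM (exact 95% Poisson interval 0.572 to 1.17) and the control reads 1.44 (1.10 to 1.84). These intervals cover counting error only, and their overlap is not a test of the difference. As it passed the filter through the controls, these values describe the libraries.

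As a description under the same limit, the Shox2 difference was -0.83 (SE 0.38) in female E8.5e embryos, -0.53 between the 1 male mutant and 2 male controls, and -0.70 with heart muscle or with neural tube in the fit. Male E8.5f minus female E8.5e embryos differed by 0.033 (SE 0.27). The exons of Shox2 overlap those of Rsrc1 on the other strand, which had normalised counts of 599, 591 and 552 in mutants 1 to 3 and 570.1, 569, 587 and 549.7 in controls 1 to 4, with the groups overlapping.

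**Figure D5:**
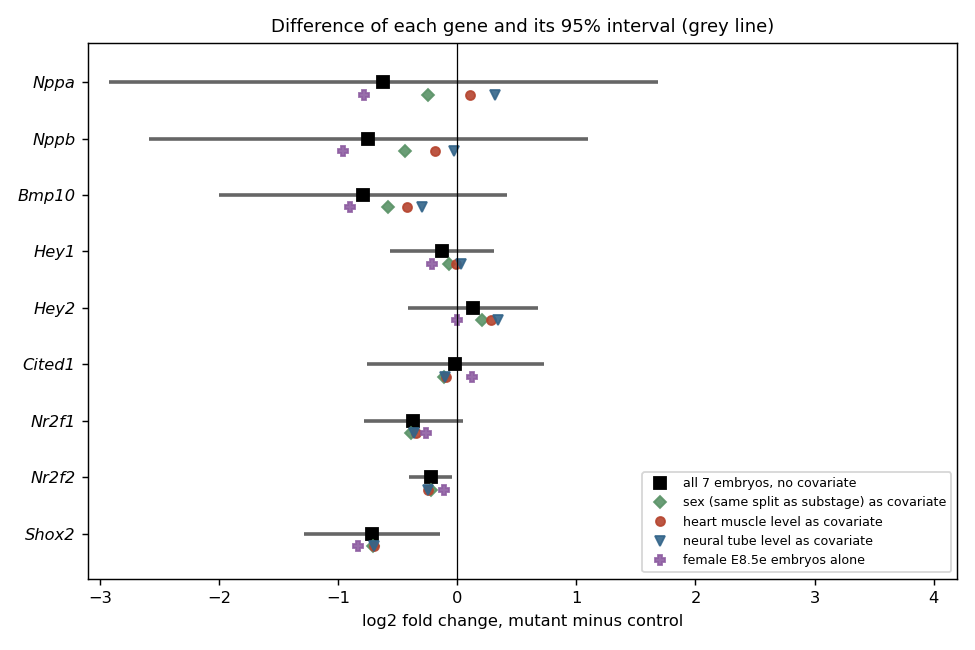
Log2 fold change of mutant minus control for each gene with its 95% interval from limma (black squares, grey lines), and below each the values from fits with a covariate (sex, heart muscle or neural tube) or on females alone. The intervals of Nr2f2 and Shox2 exclude 0 before adjustment. Over the fits shown, the values of Nppa lie between -0.79 and 0.31 and those of Shox2 between -0.83 and -0.70. Shox2 passed the filter through the controls, so its values describe the libraries.

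Levels of different genes were compared per length, as RPKM, recovered reads scaled to exon length and library total. Cited1 was highest, at 18.5 ± 8.41 RPKM in mutants and 18.2 ± 5.93 in controls, followed by Nr2f2 (12.0 ± 1.01 and 14.0 ± 0.97) and Hey1 (9.94 ± 2.28 and 10.9 ± 1.76; SD, n = 3 mutants and n = 4 controls throughout). Hey2 (8.40 and 7.56), Nppb (5.98 and 7.79), Nr2f1 (5.55 and 7.15), Nppa (3.42 and 4.16) and Bmp10 (2.32 and 3.69) lay below them. In mutants, the ranges of mean ± SD of neighbours in this order overlapped down to Bmp10; in controls those of Nr2f2 and Hey1 did not, Nppb stood above Hey2, and the other neighbours down to Bmp10 overlapped. Shox2 was lowest, at 0.253 ± 0.030 in mutants and 0.434 ± 0.025 in controls. With the longest transcript in place of all exons, the mutant and control means were 29.8 and 29.2 for Cited1, 24.4 and 28.7 for Nr2f2 and 15.1 and 13.6 for Hey2, which then stood above Hey1 (13.4) in mutants and below it (14.6) in controls.

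The genes whose profiles over the 7 embryos lay nearest to each member, by root mean square difference of centred log2 values, were found among protein-coding genes. Nearest to Nppa were Myh11 (0.46), a smooth muscle myosin, and the cardiac troponin gene Tnni3 (0.56). Tnni3 (0.36) and Trdn (0.37), which encodes triadin of the sarcoplasmic reticulum, were nearest to Nppb, and Nkx2-1 (0.21) was among the nearest to Bmp10. Hey1 lay nearest to St14 (0.049) and Wfdc2 (0.068), genes known from epithelia, and Hey2 to Gata3 (0.052) and Amigo2 (0.062). The neighbours of Cited1 were the zinc finger genes Zfp991 (0.089) and Zfp119b (0.14). Nr2f1 lay nearest to Nsun3 (0.097) and Nox4 (0.10), Nr2f2 to Epha7 (0.060) and Ogfrl1 (0.063), and Shox2 to 1300017J02Rik (0.16) and Mapre3 (0.16). Among the members, Hey1 and Hey2 were the closest pair (0.17) and Nppa and Cited1 the farthest apart (1.63). The measure is not scaled to spread, so steady genes lie close whatever their pattern. The SD of the log2 values was 0.28 for Hey1 and 0.36 for Hey2. It was 1.54 for Nppa and 1.26 for Nppb, a pair at 0.39.

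Other genes of the same programmes were called in no list. Counts give the direction of the log2 fold change, which no gene passed, and the genes named are among those of smallest p. Over all genes tested 48.3% were lower. Some genes, such as Gja5, Tbx5 and Myh7, stand in more than 1 list, so the counts here and below are not separate observations. Of 15 other chamber muscle genes 14 were lower (median -0.26), and 0 of 15 passed. They include Pln, which restrains the calcium pump (10.7, 6.09 and 3.62 in mutants against 20.7, 20.2, 10.1 and 24.5 in controls, log2 fold change -1.39, SE 0.43). Pln passed the filter through the controls, where it was higher, so its values describe the libraries. Of 11 tested atrial genes 10 were lower (median -0.23), with Angpt1, a ligand of the Tie2 receptor, at -0.45 (SE 0.28) and Vsnl1, a calcium sensor, at -0.72 (SE 0.48). Of 14 sinus venosus and sinus node genes 11 were lower (median -0.22). Among them Smoc2, which encodes a matrix protein, stood at -0.54 (SE 0.26). Of 10 atrioventricular canal genes 6 were lower (median -0.14), with Gjc1, a connexin gene, at 0.10 (SE 0.054) and Bmp2 at -0.34 (SE 0.30).

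Among regulators and partners 0 were called as well. All 11 cardiac regulators upstream of the chamber genes were lower (median -0.18), with Zfpm2, a GATA cofactor, at -0.61 (SE 0.22) and the cardiac GATA factor Gata4 at -0.32 (SE 0.36). Gata4 had 2241, 2150 and 1861 in mutants against 3223, 3492, 1172 and 3416 in controls, control 3 alone lying below the mutants. Leaving out control 3, the embryo that goes against the rest, limma called 8 genes lower and 1 higher over the whole table in mutants, and Gata4 was among the 8 (-0.70, adjusted p = 0.0371). As that embryo differs in Gata4 itself, this is no independent support for a lower level. All 7 tested genes of natriuretic peptide processing and reception were lower (median -0.25), with Npr3, the clearance receptor, at -0.27 (SE 0.16) and Npr2 at -0.30 (SE 0.22). Of 10 BMP10 receptors and relatives 7 were lower (8 with library-total or TMM scaling; median -0.10). Acvrl1, named for its small p, encodes a receptor for BMP10 on endothelium. Its values were 167, 180.4 and 194 in mutants against 231, 236, 202 and 199.6 in controls (-0.26, SE 0.11). Every mutant was below the controls for Acvrl1, as for 2.08% of all genes tested. Tgfbr3 stood at -0.14 (SE 0.11). In the Notch list 9 of 13 tested genes were higher (median 0.088), among them Maml1, a coactivator (0.17, SE 0.064), and Heyl (1.11, SE 0.59), a relative of Hey1 with 11.4 to 26.2 in mutants and 2.59 to 19.0 in controls. Heyl passed the filter through the mutants, where it was higher, so its values describe the libraries. Of 8 tested relatives and partners of the COUP-TF and CITED factors 5 were higher (median 0.088), among them Ep300, which encodes p300 (0.16, SE 0.083). The heart muscle list had 15 of 15 lower (median -0.24) and the neural tube list 12 of 12 tested higher (median 1.19), again with 0 called, and the part of tissue content in the counts above was not tested.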

How the data were processed

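Oriented libraries of polyadenylated RNA were made from 1 embryo each, per the labels' protocols. The submitters' processing notes list HISAT2, featureCounts, Subread, DESeq2, edgeR, limma and GRCm38, with no roles or settings. The authors deposited a normalised signal for each library, namely gene counts divided by 1 factor per library: 100% of values above 0 were whole multiples of the library's step (tolerance 0.1), which gave back whole reads (counts). The authors' tables also hold, per the file headers, ratios of group means, p-values and score columns (differences and flag numbers). Genes were tested with limma 3.58.1 (R 4.3.3, trended empirical Bayes) on log2(deposited value + 1), a scale that understates changes of low genes. Alternatives were edgeR 4.0.16, DESeq2 1.42.0 and limma-voom on recovered reads (limma called 2 genes, edgeR 1 and DESeq2 8, none of them members), other scalings, filters, pseudocounts and covariates, and leaving out each embryo. Groups follow the genotype labels. Embryos share no number or litter in the labels, and p-values measure the spread between these embryos. GENCODE M21 gave coordinates and exon lengths for 48058 of 48526 genes, and RefSeq the upstream sequences. Named genes are the members, the 2 genes of smallest p in each pathway list, the 2 nearest profiles of each member, the first genes of the marker lists and the label checks; Gata4 without control 3 was singled out after its values were seen. Some genes that this rule names are not reported here. The members, lists, ratios and tests were chosen with earlier results of these data known. No member fell below the filter.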

Additional observations from a re-analysis of the deposited data

How the results depend on the processing

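No member was called in any of 180 fits of a single member under 20 alternative settings, the lowest adjusted p being 0.325. In 5 members (Nppb, Bmp10, Nr2f1, Nr2f2 and Shox2) the sign held in all settings. In the other 4 it turned in 14 of the fits, for causes that were not tested. Shox2 passed the filter through the controls, where it was higher, so its constant sign is a description. Nppa was 0.31 with the neural tube level and 0.10 with the heart muscle level as a covariate and 0.085 without mutant 2 (leave-one-out range -1.63 to 0.085). Hey1 was 0.031 with the neural tube level and 0.011 without mutant 3 (range -0.32 to 0.011). Hey2 was -0.0013 in female E8.5e embryos alone, -0.12 without mutant 1 and -0.025 without control 3 (range -0.12 to 0.32), against 0.35 with the neural tube and 0.28 with the heart muscle level. Cited1 was 0.0145 with edgeR, 0.020 with DESeq2, 0.12 in females alone, 0.29 without mutant 1, 0.0083 without mutant 3 and 0.18 without control 1 (range -0.35 to 0.29). Leaving out an embryo moved Nppb between -1.62 (mutant 1) and -0.012 (mutant 2), Bmp10 between -1.38 (mutant 1) and -0.45, and Shox2 between -0.79 and -0.63. Over all genes, 2 were called lower and 0 higher; edgeR called 1 lower, DESeq2 8, limma-voom 0 (578 at an unadjusted p under 0.05), the fit with sex 1, and females alone 0. Without 1 embryo, 1 to 8 genes were called lower and 0 to 1 higher, the 8 and the 1 without control 3 and the rest 1 and 0. No paired analysis was possible because the labels give no number shared across the groups. Depth limits Shox2 and the low Nppa values, at 5 to 20 reads, and Nppb in mutant 2 (16 reads) and control 3 (18 reads).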

Other observations

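Markers of other tissues in the dissected region, none of which passed the test, were as follows. Of 8 tested paraxial mesoderm genes 7 were higher in mutants (median log2 fold change 1.12), with Tcf15, a somite regulator, at 112, 274 and 362 in mutants 1 to 3 and 16.4, 66.9, 312 and 19.6 in controls 1 to 4. Of 15 yolk sac genes 15 were lower (median -0.82), Afp standing at 148, 987 and 484 in mutants and 1443, 795, 507 and 429 in controls. The mean log2 level of the yolk sac list was 5.12, 8.73 and 7.58 in mutants 1 to 3 and 8.76, 8.09, 7.68 and 7.30 in controls 1 to 4, so mutant 1 alone lay below the controls and mutants 2 and 3 lay within their range. Of 14 tested surface ectoderm genes 10 were higher (median 0.14), of 11 neural crest genes 9 were higher (median 0.27), and of 11 foregut genes 8 were lower (median -0.044). Of 14 endothelial and endocardial genes 13 were lower (median -0.18). Of 5 tested primitive blood genes 3 were lower (median -0.60), and of 9 tested proepicardial genes 5 were lower (median -0.18). The summed normalised counts overlapped between the groups: paraxial mesoderm at 2315 to 4985 in mutants and 1105 to 4618 in controls, yolk sac at 1407 to 18795 in mutants and 5367 to 18158 in controls, and endothelium at 9064 to 9874 in mutants and 8045 to 13049.5 in controls.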
